A study of Arabis alpina with 27 samples.

Results

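In the main stem of the perennial *Arabis alpina*, 65 of the 21641 genes in the count table were high after 4 and 8 weeks at 4°C and low again after 21 weeks at 4°C. They were chosen on their levels in CPM, the count of a gene scaled so that all libraries have the same total. A gene was taken when it had a count above 0 in all 18 libraries made before or during cold, when its 4-week and 8-week means were each at least 10 CPM and at least 2 times the mean before cold, and when every 21-week library was below 0.5 times the 4-week mean and 0.5 times the 8-week mean. All 65 also passed the filter on low counts, together with 19337 genes in all, which follows from the demand for 10 CPM. The levels before cold and at 4, 8 and 21 weeks therefore chose the genes. They are given below as a description, and the calls against 0w counted there are no independent test.

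The stems came from accession Pajares and were cut from the main stem below the rosette. Plants grown for 8 weeks in a long-day glasshouse were sampled before cold (0w), and others were moved to 4°C under the same day length. Stems were taken in the cold after 4 weeks (4w), 8 weeks (8w), 12 weeks (12w), 16 weeks (16w) and 21 weeks (21w). A further set was cut once plants that had spent 12, 16 or 21 weeks in the cold had been back in the warm glasshouse for 5 days, and carries the names 12w+5dLD, 16w+5dLD and 21w+5dLD. Each of these 9 groups had 3 libraries, and each library was made from the pooled stems of 10 plants, so that the spread between libraries is one between pools. No plants of the same age were kept warm throughout, so wherever a cold group is set beside 0w its cold cannot be told apart from its age, and return to warmth also added 5 days of age. The study asked how stems change during and after long cold, when adventitious roots form on them.

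In *A. thaliana*, a relative in the same plant family, cold induces the CBF transcription factors, which switch on a regulon of COR genes. The proteins of that regulon, among them hydrophilic and membrane proteins, protect cells from freezing and from loss of water. Part of the same gene set also answers to abscisic acid, the hormone of water deficit, through bZIP factors of the ABF family. *A. thaliana* symbols are used here for the homolog that the count table pairs with a gene, and the roles given are those known in *A. thaliana*. A gene without such a homolog keeps its Aa_G identifier.

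Library totals ran from 16089542 to 22523390 counts. An *A. thaliana* locus was paired with 41 of the 65 genes, or 63.1%, against 77.5% of all genes tested. By locus code, 8, 3, 6, 7, 8, 5, 6 and 13 of the genes lay on chromosomes 1 to 8, and 9 had no chromosome in the code. Xylem, phloem and cambium markers were measured in every library, and 7 of 10 loci of the root primordium list, among them *PLT1* and *WOX5*, were not among the genes tested. No member was on a cell type marker list.

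Libraries of one group did not always hold the same level of these genes. Replicate 3 of 0w was the highest of its group for 53 of the 65 genes, or 81.5%, against 33.0% of all genes tested. Replicate 3 of 21w+5dLD was the highest of its group for 47 of the 65, or 72.3%, against 38.2% of all genes tested. Over the 1000 most variable genes, the profile of that library correlated at r = 0.540 with 21w and at r = 0.340 with the other 21w+5dLD libraries, whereas replicates 1 and 2 had r = 0.356 and 0.347 with 21w and r = 0.429 and 0.463 within their group. Without replicate 3 of 0w the rule took 67 genes, 64 of them among the 65. Counts and medians over the 65 genes that involve 21w+5dLD are therefore also given without its replicate 3, a choice made after seeing the data, as were the ratios of *GRP3* with a library left out.

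A second feature lies in the counts themselves. For 23 of the 65 genes, a count of at least 20 was equal to that of a neighbouring gene in at least 1 library. *GNA1* and Aa_G383500 were identical in all 27 libraries, as were Aa_G1106590 and Aa_G1114730, so each pair is 1 measurement that was counted for both genes. In 11 genes the 4w or the 8w libraries lay over 5 times apart, and for 4 of these, Aa_G152410, Aa_G163190, Aa_G265210 and Aa_G81380, at most 8 libraries had an equal count and each of them was above every other library. Aa_G152410 had 27.0 to 36.5 CPM in the 6 libraries with an equal count and at most 4.01 CPM in the others. Aa_G81380 had 94.3 to 106 CPM in the 3 libraries where its count equalled that of Aa_G81390 and at most 0.447 CPM in the others. These 4 genes met the rule through a few libraries, and reads counted for them in those libraries cannot be told apart from those of the neighbour. Others of the 11 also met it through a few libraries. Aa_G112440 had 67.5, 2.54 and 3.28 CPM at 4w and 2.98, 2.66 and 57.6 CPM at 8w. Aa_G1106590 had 0.768, 59.98 and 0.529 CPM at 4w, and Aa_G869770 had 119, 6.89 and 13.1 CPM at 8w. Of the 11 genes, 3, with Aa_G112440 and Aa_G112450 among them, are counted as lower after 12 weeks and return and 2 after 16 weeks, given below. Aa_G112440 and Aa_G112450 had equal counts in 26 libraries, so their calls are hardly separate.

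The levels of the 65 genes describe an early maximum and a long decline. Their summed level, in which a pair with identical rows counts for both genes, was 3853 ± 842 CPM at 0w, 15828 ± 326 CPM at 4w, 20276 ± 946 CPM at 8w, 13729 ± 846 CPM at 12w, 8572 ± 930 CPM at 16w and 5074 ± 705 CPM at 21w (SD, n = 3 each). The 3 libraries at 0w held 3108, 3685 and 4766 CPM, and those at 21w held 4312, 5206 and 5703 CPM, so both groups overlapped. *RD29A* alone made up 15.3 to 24.8% of the group means of this sum.

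**Figure D1:**
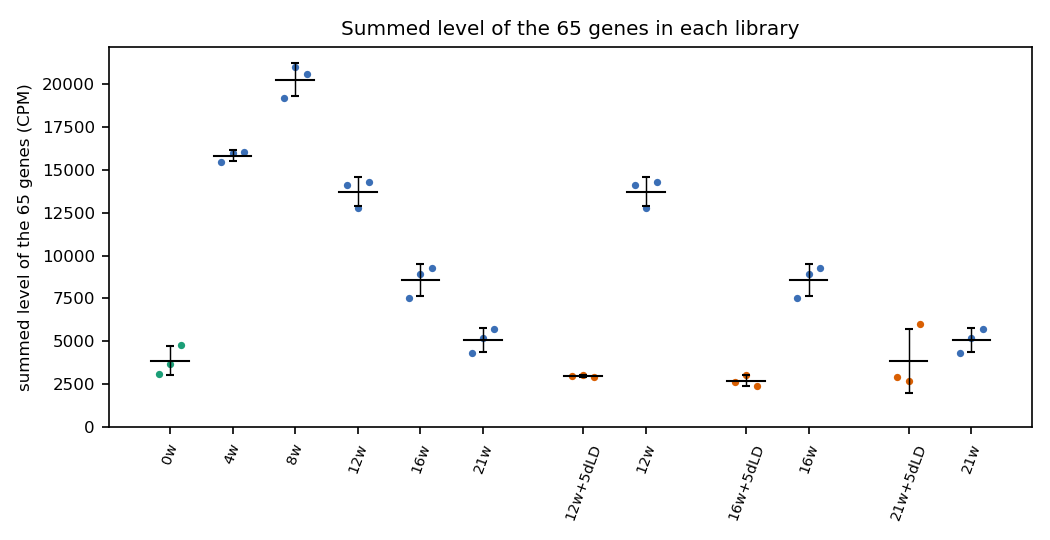
Summed level in CPM of the 65 genes in each library (points), with the mean (black line) and SD of the 3 libraries of a group; the 12w, 16w and 21w libraries are drawn again beside the libraries of plants returned to the glasshouse. The mean stands highest at 8w, at 20276 CPM, and the libraries of 12w+5dLD and 16w+5dLD lie below all those of 12w and 16w.

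Gene by gene, the mean was highest at 8w for 42 genes, at 4w for 15, at 12w for 6 and at 16w for 2. The median ratio to the 0w mean along the cold series from 4w to 21w was 4.78, 5.04, 3.85, 2.62 and 1.25. The mean was lower at each step from 8w to 21w in 48 genes. At 12w, 47 of the 65 means were still at least 2 times the 0w mean, at 16w 38 were, and at 21w 12 were, while 26 had a 21w mean below that of 0w. The decline therefore ran over the whole time from 8w to 21w, with 4 genes at 12w and 30 at 16w below 0.5 times the lower of their 4w and 8w means. By the test described below, the number of the 65 that were higher than 0w was 54, 55, 39, 23 and 3 along the same series, with 5.6%, 6.26%, 7.07%, 7.07% and 5.14% of all genes tested. These counts restate the rule for 4w, 8w and 21w, and those for 12w and 16w share its 0w libraries. They are therefore a description, and the shares of all genes tested cannot be used to read an enrichment of the 65.

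**Figure D2:**
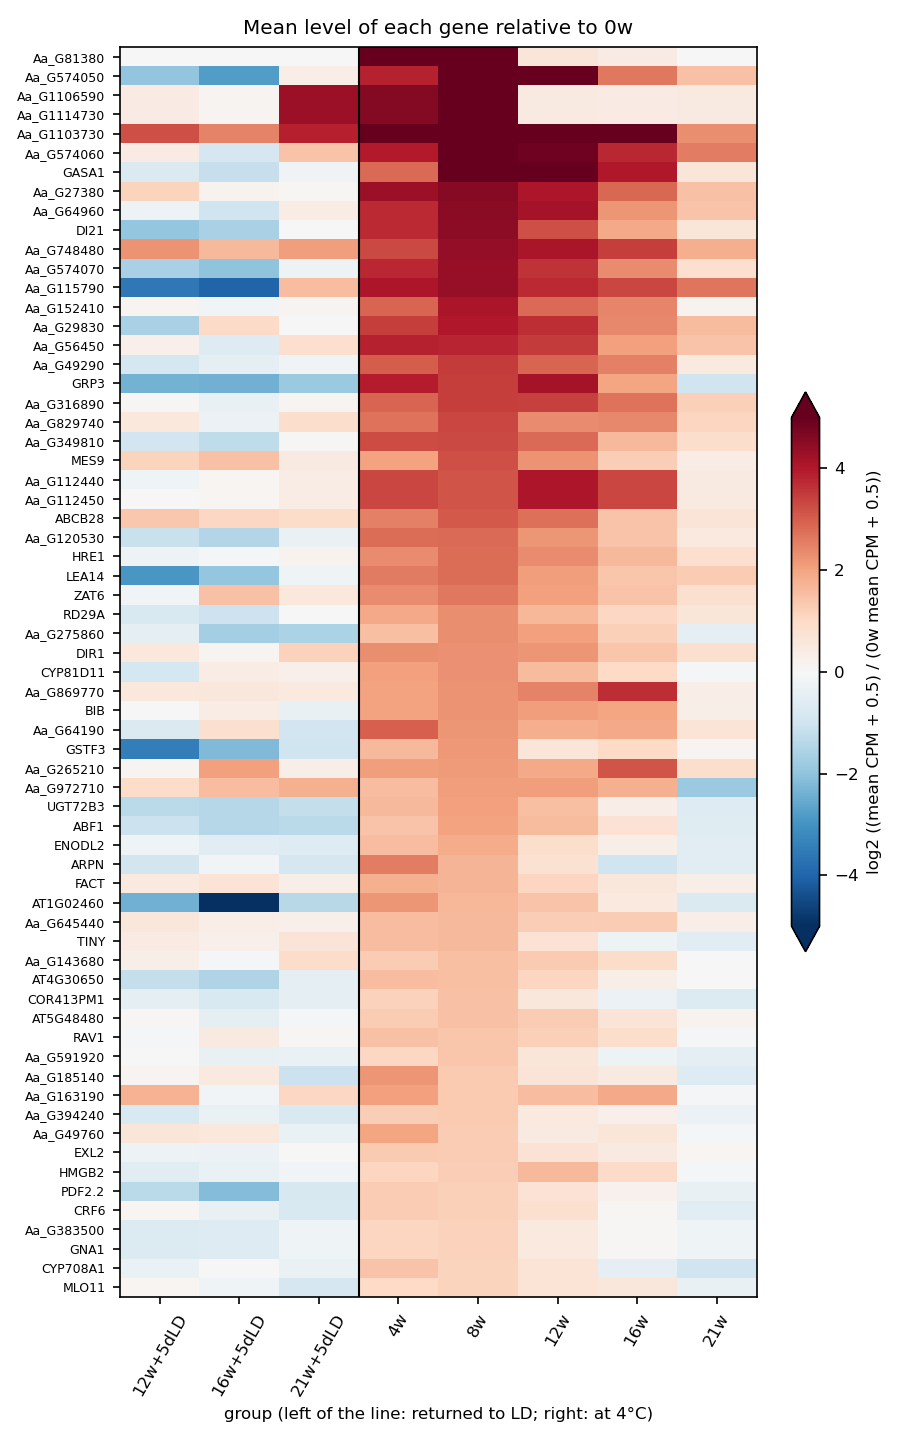
Mean level of each of the 65 genes (rows) in each group (columns) as log2 of the ratio to 0w, each mean raised by 0.5 CPM; returned plants stand left of the plants in cold, and rows follow the 8w value. The colours fade towards the 0w level from 8w to 21w, and the columns of returned plants are near or below it, the median fold over 0w being 0.858 for 12w+5dLD, 0.810 for 16w+5dLD and 1.00 for 21w+5dLD (0.723 without its replicate 3).

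Some genes lay close to the thresholds. Aa_G394240 lay just inside the minimum of 10 CPM, with 12.2 CPM as the lower of its 4w and 8w means, and Aa_G264570 just outside it, with 8.23 CPM. *MLO11* was inside the 2-fold minimum at 2.02 times the 0w mean and Aa_G384910 outside it at 1.92 times. At the limit for 21w, the ratio of the highest 21w library to the lower of the 4w and 8w means was 0.497 for *AT5G48480*, a gene of the glyoxalase I superfamily, and 0.501 for Aa_G81740, which was left out. The limit for 21w alone excluded 609 genes that met every other condition, and these early genes that did not fade are used below for comparison.

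After 12 weeks of cold, 5 days in the glasshouse left most of these genes far below their level in the cold. With 12w as the base, 45 of the 65 genes were lower and 0 higher at 12w+5dLD, where lower or higher means a fold of at least 2 with an adjusted p under 0.05 (edgeR quasi-likelihood test, Benjamini-Hochberg adjustment over all genes tested). Among all genes tested 4.88% were lower and 5.77% higher. DESeq2 called 47 lower and 0 higher. By edgeR, 55 of the 65 had an unadjusted p under 0.05, none of them with a positive value, as had 7137 of the 19337 genes tested in either direction. The median log2 fold change of the 65 was -2.29, against 0.01 over all genes tested, and 63 of the 65 had a negative value. In 56 genes, or 86.2%, every 12w+5dLD library was below every 12w library, as for 18.2% of all genes tested. The summed level was 2979, 3003 and 2887 CPM at 12w+5dLD, against 14127, 12757 and 14302 CPM at 12w.

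After 16 weeks the same return left 34 of the 65 lower and 0 higher than at 16w, with 4.56% and 6.83% of all genes tested. DESeq2 called 35 lower and 0 higher. By edgeR, 47 of the 65 had an unadjusted p under 0.05, as had 7336 of the 19337 genes tested in either direction. Of those 47, only *ARPN* had a positive value. The median log2 fold change was -1.83, against 0.02 over all genes tested, and 60 of the 65 had a negative value. The libraries did not overlap in 45 genes, or 69.2%, with 16w+5dLD lower, as for 19.3% of all genes tested, and in 1 gene with 16w+5dLD higher, as for 28.1% of all genes tested. The summed level was 2606, 3039 and 2403 CPM at 16w+5dLD, against 7521, 8908 and 9288 CPM at 16w.

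On return after 12 or 16 weeks, all 6 libraries had a summed level below that of every 0w library. It was 2956 ± 61.5 CPM at 12w+5dLD and 2683 ± 325 CPM at 16w+5dLD, against 3853 ± 842 CPM at 0w (SD, n = 3 each). The returned mean was below the 0w mean in 37 genes at 12w+5dLD, in 41 at 16w+5dLD, in 32 at 21w+5dLD (46 without its replicate 3) and in 24 genes in all 3 returned groups (30 without that replicate). Every returned library was below every 0w library in 15 genes (23%) at 12w+5dLD and in 19 (29%) at 16w+5dLD. Among all genes tested this held for 18% in both comparisons. Every returned library was above every 0w library in 6 of the 65 genes in each. In most of the 65 genes the returned libraries therefore overlapped with those of 0w. Since 0w helped to choose the genes, all these counts are descriptions.

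Early genes that did not fade were often lower on return too. Of the 609 early genes that did not fade, 283 were lower and 1 higher after the return at 12 weeks, and 270 were lower and 9 higher after that at 16 weeks. Their median log2 fold changes were -1.11 and -1.07. These genes had also been less high, with a median of 2.80 times the 0w level at 4w, and the difference between both sets was not tested.

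**Figure D3:**
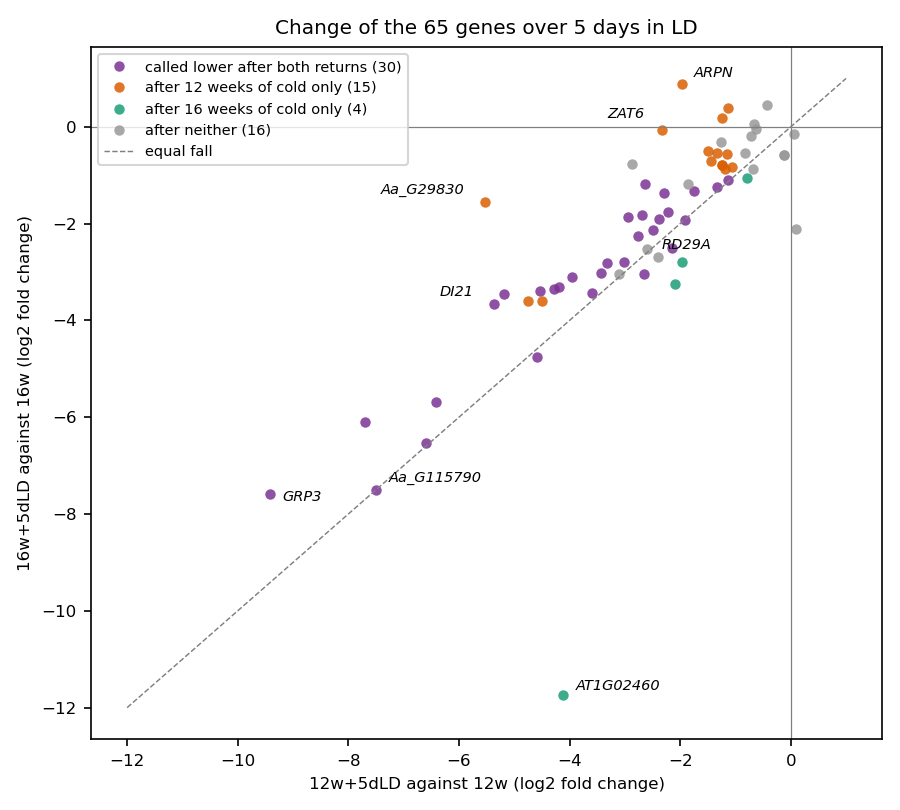
Log2 fold change of each of the 65 genes at 12w+5dLD against 12w (x axis) and at 16w+5dLD against 16w (y axis); colours mark the 30 genes lower after both returns, the 15 after 12 weeks only, the 4 after 16 weeks only and the 16 after neither, and the dashed line marks equal changes. Most points lie where both values are negative, and the most negative values, those of *GRP3* and *AT1G02460*, depend on the small count added in the fit.

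Lower after both returns were 30 genes, after 12 weeks only 15, after 16 weeks only 4 and after neither 16. A call in one comparison and not in the other does not show that the responses differed. Tested directly, the response to return after 16 weeks differed from that after 12 weeks in 0 of the 65 genes by edgeR, with 0.0207% of all genes tested called. An unadjusted p under 0.05 was found in 15 of the 65 and in 1762 of the 19337 genes tested. The count was 1 without replicate 2 of 12w, replicate 3 of 12w+5dLD or replicate 3 of 21w+5dLD, and 2 without replicate 3 of 16w+5dLD. The median difference was 0.51 on the log2 scale, against 0.02 over all genes tested, positive where the fall after 16 weeks was the smaller, and the summed level in the cold was itself lower at 16w than at 12w. DESeq2 called 5 genes, *ARPN*, *ZAT6*, *CYP708A1*, *UGT72B3* and *AT1G02460*. No share of all genes tested is given for DESeq2, so whether these 5 of the 65 exceed it cannot be read. The differences of *ARPN*, *ZAT6*, *CYP708A1* and *UGT72B3* were 2.86, 2.26, 1.53 and 1.07 on the log2 scale. For *ZAT6*, replicate 2 of 16w+5dLD stood apart, as given below. The difference of *AT1G02460* was negative, and with 0 counts in every 16w+5dLD library its size cannot be read.

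The 31 genes with a known role were grouped after their names and values had been seen, and the counts that follow describe the groups without a test. All 5 genes for protective proteins, *RD29A*, *COR413PM1*, *LEA14*, *DI21* and *AT4G30650*, were lower after 12 weeks and return, and 4 of the 5 after 16 weeks and return. Their median fold over 0w along the cold series from 4w to 21w was 3.77, 5.05, 3.14, 2.04 and 1.5.

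*RD29A*, the hydrophilic protein by which the CBF regulon is often followed, took more counts than any other of the 65. CPM are not scaled for gene length, so levels of different genes are not ranked here. *RD29A* had 712, 831 and 973 CPM at 0w, 3053, 3097 and 3332 CPM at 4w, 3996, 4247 and 4470 CPM at 8w, 2835, 2641 and 2427 CPM at 12w, 1435, 1823 and 1887 CPM at 16w, and 1035, 1207 and 1539 CPM at 21w. No library of one of these groups overlapped with a neighbouring time except between 16w and 21w. On return it had 470, 479 and 540 CPM at 12w+5dLD, against the values above at 12w, which gave -2.48 on the log2 scale (SE 0.36, edgeR adjusted p = 7.46e-05). At 16w+5dLD it had 383, 397 and 452 CPM, which against 16w gave -2.14 on the log2 scale (SE 0.36, edgeR adjusted p = 0.000281). All 6 of these returned libraries were below every 0w library.

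*COR413PM1*, a cold-regulated protein of the plasma membrane, had 365, 379 and 466 CPM at 0w, 847, 917 and 936 CPM at 4w, 912, 1207 and 1199 CPM at 8w, 642, 592 and 562 CPM at 12w, 291, 334 and 371 CPM at 16w, and 267, 260 and 227 CPM at 21w. The libraries of 16w overlapped with those of 0w, and all 21w libraries were below them. At 12w+5dLD it had 262, 319 and 269 CPM, and the change against 12w came to -1.15 on the log2 scale (SE 0.14, edgeR adjusted p = 1.04e-05). At 16w+5dLD it had 205, 276 and 234 CPM, and the change against 16w came to -0.56 on the log2 scale (SE 0.13, edgeR adjusted p = 0.00418), under the 2-fold limit.

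*LEA14* and *DI21*, a late embryogenesis abundant protein and a drought-induced protein, stood furthest below their cold level within this group. *LEA14* had 7.81, 6.56 and 10.5 CPM at 12w+5dLD, against 279, 282 and 295 CPM at 12w, which gave -5.18 on the log2 scale (SE 0.74, edgeR adjusted p = 5.78e-05). Those returned levels were also below the 50.9, 50.3 and 96.7 CPM of 0w. *DI21* had 6.66, 5.93 and 5.17 CPM at 12w+5dLD, against 317, 151 and 224 CPM at 12w, which gave -5.36 on the log2 scale (SE 0.67, edgeR adjusted p = 1.88e-05). *AT4G30650*, of the RCI2 family of small membrane proteins, had 23.7, 26.4 and 28.4 CPM at 12w+5dLD, against 144, 116 and 127 CPM at 12w, with every returned library also below the 55.3, 58.2 and 69.1 CPM of 0w.

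Of 8 regulators, 6 were lower after 12 weeks and return and 4 after 16 weeks and return. *ABF1*, a bZIP factor that binds abscisic acid response elements, had 49.96, 54.8 and 70.9 CPM at 0w, 153, 168 and 154 CPM at 4w, 232, 254 and 236 CPM at 8w, 168, 183 and 182 CPM at 12w, 82.2, 103 and 103 CPM at 16w and 26.8, 32.8 and 55.8 CPM at 21w. It had 26.8, 29.3 and 26.6 CPM at 12w+5dLD, which against 12w gave -2.77 on the log2 scale (SE 0.27, edgeR adjusted p = 2.79e-06). At 16w+5dLD it had 18.4, 25.6 and 20.2 CPM, which against 16w gave -2.25 on the log2 scale (SE 0.27, edgeR adjusted p = 2.63e-05). As with *RD29A*, all 6 returned libraries were below every 0w library.

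*ZAT6*, a C2H2 zinc finger repressor, had 13.6, 13.8 and 14.8 CPM at 12w+5dLD, against 68.8, 62.3 and 70.7 CPM at 12w, which gave -2.33 on the log2 scale (SE 0.41, edgeR adjusted p = 0.000369). At 16w+5dLD it had 20.0, 94.6 and 16.9 CPM, against 41.7, 40.1 and 47.6 CPM at 16w, which gave -0.07 on the log2 scale (SE 0.39, edgeR adjusted p = 0.94). Replicates 1 and 3 were below every 16w library and replicate 2 above them. Without that replicate 2 the change came to -1.30 on the log2 scale (SE 0.17, edgeR adjusted p = 0.000181).

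*HRE1*, an ethylene response factor of the group known from low oxygen, had 42.1, 44.5 and 43.7 CPM at 12w+5dLD, against 291, 244 and 266 CPM at 12w, which gave -2.70 on the log2 scale (SE 0.31, edgeR adjusted p = 8.86e-06). *BIB*, a zinc finger factor known from the root ground tissue, kept 24.9, 26.7 and 25.8 CPM at 16w, near the 24.1, 31.3 and 25.0 CPM of 4w, and then had 4.43, 11.9 and 6.84 CPM at 21w. It was lower after both returns, with 9.16, 9.26 and 5.84 CPM at 16w+5dLD. *HMGB2*, a chromatin protein, was also lower after both, but its count equalled that of a neighbour in 6 libraries. Its change after 16 weeks missed the threshold without replicate 2 of 16w (-0.89 on the log2 scale, edgeR adjusted p = 0.14) and without replicate 3 of 16w+5dLD (-1.17, edgeR adjusted p = 0.0855). *RAV1*, an AP2/B3 factor, passed after 12 weeks, with a change of -1.33 on the log2 scale (SE 0.21, edgeR adjusted p = 0.000142). After 16 weeks its change was -0.53 (SE 0.21, edgeR adjusted p = 0.0623), with 71.9, 127 and 57.9 CPM at 16w+5dLD, against 104, 131 and 115 CPM at 16w. *CRF6*, a cytokinin response factor, and *TINY*, a DREB-type factor, did not pass, with log2 fold changes at 12w+5dLD of -0.82 and -0.42.

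**Figure D4:**
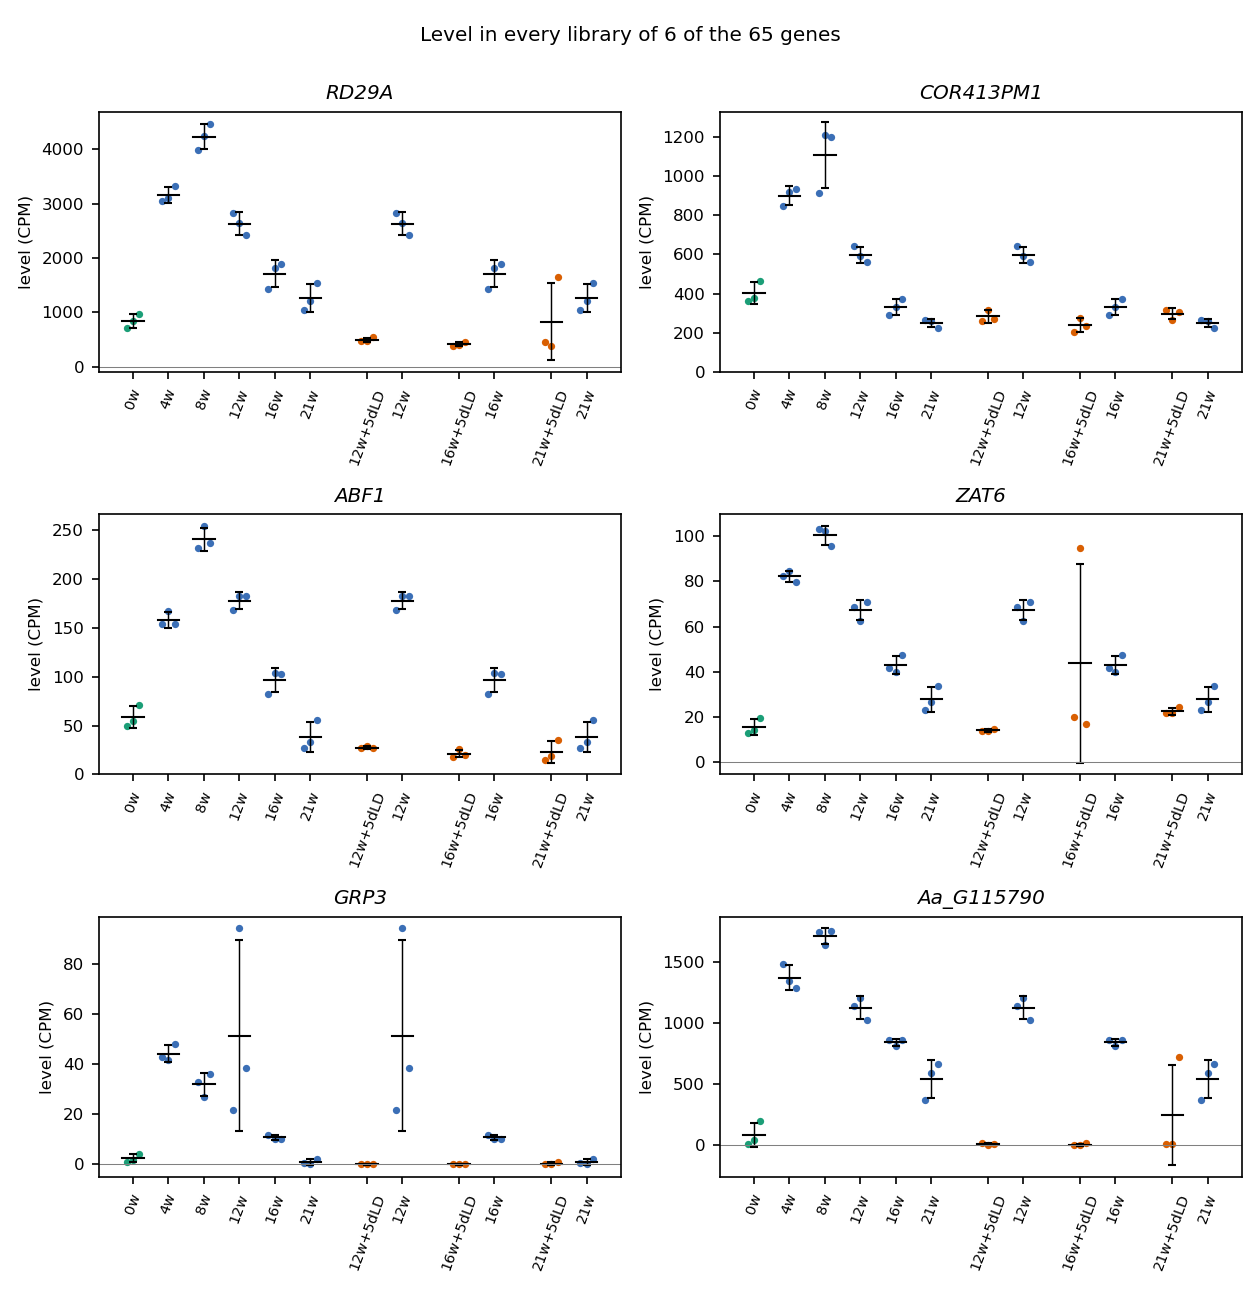
Level in CPM of 6 of the 65 genes in every library (points), with the mean (black line) and SD of 3 libraries per group; the cold libraries of 12w, 16w and 21w are drawn again beside the returned ones. The returned libraries of *RD29A*, *ABF1*, *GRP3* and Aa_G115790 lie near the bottom of each panel, except that replicate 3 of 21w+5dLD had 1653 CPM of *RD29A* and 719 CPM of Aa_G115790, and replicate 2 of 16w+5dLD stands apart for *ZAT6*.

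Of 6 enzymes, 5 were lower after 12 weeks and 3 after 16 weeks. *UGT72B3*, a glycosyltransferase of the family that conjugates phenolic compounds, had 45.0, 31.6 and 44.2 CPM at 12w+5dLD, against 261, 305 and 312 CPM at 12w, which gave -2.94 on the log2 scale (SE 0.25, edgeR adjusted p = 8.39e-07). *GSTF3*, a glutathione S-transferase, had 0, 14.8 and 18.9 CPM at 12w+5dLD, against 187, 165 and 242 CPM at 12w, which gave -4.20 on the log2 scale (SE 1.05, edgeR adjusted p = 0.00555), or -3.61 without replicate 1 and -4.80 without replicate 3 of 12w+5dLD. After 16 weeks it had 31.0, 22.7 and 28.0 CPM at 16w+5dLD, against 209, 289 and 271 CPM at 16w, and this call was lost when any one library of 16w+5dLD was left out. *GNA1*, which makes a precursor of amino sugars, had 113, 200 and 170 CPM at 12w+5dLD, against 384, 291 and 413 CPM at 12w, and cannot be told apart from its neighbour Aa_G383500, whose counts were the same.

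Of 6 genes for the cell wall and surface, 4 were lower after 12 weeks and 2 after 16 weeks. *GRP3*, a secreted glycine-rich protein, had 42.8, 41.9 and 48.3 CPM at 4w, and on return it was almost undetected. It had 0, 0.171 and 0.0507 CPM at 12w+5dLD, against 21.6, 94.4 and 38.5 CPM at 12w, which were 4 counts in all against 2942. The pooled ratio was 0.00136, with an exact 95% binomial interval of 0.000369 to 0.00347 that covers counting error only. It was 0.00243 without replicate 2 of 12w and 0.000496, from 1 count, without replicate 2 of 12w+5dLD. At 16w+5dLD 3 counts stood against 610 at 16w, a ratio of 0.00488 (0.001 to 0.0143). *AT1G02460*, of the polygalacturonase family that cleaves pectin, had 0 counts in all 3 libraries of 16w+5dLD, against 12.7, 19 and 35.0 CPM at 16w, and was at least 420.3-fold lower when 3 counts over the group are taken as the floor. *EXL2*, an EXORDIUM-like protein, lay near the limit, with 193, 319 and 280 CPM at 12w+5dLD, against 532, 533 and 499 CPM at 12w, which gave -1.05 on the log2 scale (SE 0.17, edgeR adjusted p = 0.000209). Without replicate 1 of 12w+5dLD it was -0.85 and under the 2-fold limit.

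The remaining roles were small groups. *GASA1*, a gibberellin-regulated peptide, had 1.82, 2.62 and 1.52 CPM at 12w+5dLD, against 385, 37.2 and 64.4 CPM at 12w, which gave -6.41 on the log2 scale (SE 1.27, edgeR adjusted p = 0.000972), or -4.75 without replicate 1 of 12w, the highest. It shared its count with the neighbouring member Aa_G64960 in 3 libraries, the highest 12w library among them. *DIR1*, a lipid transfer protein of systemic acquired resistance, and *PDF2.2*, a defensin, were lower after both returns. *DIR1* had 46.4, 42.1 and 32.8 CPM at 12w+5dLD, against 151, 91.2 and 145 CPM at 12w. *MLO11*, a membrane protein of the MLO family, did not reach 2-fold after either, with log2 fold changes of -0.68 and -0.88, and its count equalled that of a neighbour in 21 libraries. *ABCB28*, an ABC transporter, had 80.0, 74.5 and 63.2 CPM at 12w+5dLD, against 213, 177 and 192 CPM at 12w, and shared its count with a neighbour in 22 libraries.

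Genes without an *A. thaliana* locus are named by identifier alone. Aa_G115790 had 13, 41.1 and 197 CPM at 0w, 1489, 1344 and 1285 CPM at 4w, 1746, 1642 and 1754 CPM at 8w, 1142, 1210 and 1023 CPM at 12w, 862, 809 and 858 CPM at 16w, and 370, 592 and 665 CPM at 21w. It had 14.5, 0 and 5.42 CPM at 12w+5dLD, which against 12w gave -7.50 on the log2 scale (SE 2.04, edgeR adjusted p = 0.0096), and 0, 0 and 14.4 CPM at 16w+5dLD. The change after 12 weeks was -8.72 without replicate 1 and -6.91 without replicate 2 of 12w+5dLD, and DESeq2 gave no adjusted p for it. Every 21w library was above every 0w library, and all 6 of these returned libraries had at most 14.5 CPM. Aa_G27380 had 114, 88.6 and 74.2 CPM at 12w+5dLD, against 670, 477 and 972 CPM at 12w, and was lower after both returns. The adjacent genes Aa_G574050, Aa_G574060 and Aa_G574070 were all lower after both returns, with log2 fold changes at 12w+5dLD of -7.70, -4.58 and -6.60, the last being -7.31 without replicate 1 and -6.003 without replicate 3 of 12w+5dLD. The first 2 of them had equal counts in 5 libraries.

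Between 12 and 16 weeks in the cold, a comparison whose libraries entered the choice of genes only through the demand for a count above 0 and also served in both returns above, 3 of the 65 genes were lower at 16w and 0 higher, with 0.103% and 0.0724% of all genes tested. The median log2 fold change was -0.67, against 0.00 over all genes tested and -0.04 over the 609 early genes that did not fade, of which 3 were lower. A negative value was found in 58 of the 65, and in 35 genes, or 53.8%, every 16w library was below every 12w library, as for 8.03% of all genes tested. The genes that passed were *UGT72B3*, *ARPN* and *ABCB28*. *UGT72B3* had 132, 130 and 132 CPM at 16w, against 261, 305 and 312 CPM at 12w, which gave -1.18 on the log2 scale (SE 0.24, edgeR adjusted p = 0.0343). *ARPN*, a blue copper protein, had 1.45, 1.92 and 3.3 CPM at 16w, against 11.8, 5.32 and 8.95 CPM at 12w, which gave -1.98 on the log2 scale (SE 0.42, edgeR adjusted p = 0.0488). *ABCB28* had 64.5, 88.7 and 82.3 CPM at 16w, against 213, 177 and 192 CPM at 12w, which gave -1.33 on the log2 scale (SE 0.26, edgeR adjusted p = 0.0303). Its count equalled that of Aa_G29830 in every library of both groups. DESeq2 called 7. The count by edgeR was 0 without replicate 1 or 3 of 12w or replicate 1 or 2 of 16w, 1 without replicate 3 of 16w and 2 without replicate 2 of 12w.

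After 21 weeks the plants were already low in the cold, and 21w libraries had helped to choose the genes, so the return is described only. The summed level was 2906, 2653 and 6019 CPM at 21w+5dLD, against 4312, 5206 and 5703 CPM at 21w. Replicate 3 alone was above every 21w library, and the other two were below all of them. The median fold over 21w was 0.797, or 0.588 without replicate 3. In 5 genes, or 7.69%, all 3 libraries of 21w+5dLD were below every 21w library, as for 7.05% of all genes tested. Replicates 1 and 2 were both below every 21w library in 36 genes, or 55.4%, as for 22.6% of all genes tested. For *RD29A* the libraries of 21w+5dLD had 462, 377 and 1653 CPM, and for *LEA14* 23.8, 9.08 and 139 CPM.

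Plants returned after 21 and after 16 weeks could be compared directly. At 21w+5dLD, 2 of the 65 genes were lower and 1 higher than at 16w+5dLD, with 0.44% and 0.3% of all genes tested. Aa_G64190 had 9.54, 25.0 and 29.3 CPM at 21w+5dLD, against 83.2, 82.1 and 52.7 CPM at 16w+5dLD, which gave -1.79 on the log2 scale (SE 0.40, edgeR adjusted p = 0.0303), or -2.09 without replicate 3 of 21w+5dLD. Aa_G185140 had 2.40, 8.42 and 3.63 CPM at 21w+5dLD, against 20.1, 10.2 and 14.8 CPM at 16w+5dLD. *AT4G30650* was higher, with 35.7, 31.5 and 64.6 CPM at 21w+5dLD, against 17.1, 27.6 and 19.2 CPM at 16w+5dLD. Without replicate 3 of 21w+5dLD only Aa_G64190 passed, without replicate 1 of 16w+5dLD 0 passed, and without replicate 2 of 21w+5dLD 10 passed.

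Other genes of the cold pathway were taken from lists. A CBF regulon list held 14 loci, of which *COR15A*, *COR15B*, *COR47*, *KIN1*, *RD29B*, *COR413IM1* and *LTI30* were not among the genes tested. Of the 7 genes that were tested, *RD29A* and *COR413PM1* among them, all 7 were lower after 12 weeks and return and 4 after 16 weeks and return, with medians of -2.48 and -1.56 on the log2 scale. *GOLS3*, which makes galactinol and is not among the 65, had log2 fold changes of -7.04 (adjusted p = 0.00281, edgeR) and -6.02 (adjusted p = 0.00627, edgeR). Of 13 transcription factors of the cold response that were tested, which include *RAV1* and *ZAT6*, 4 were lower and 0 higher after 12 weeks, and 1 was lower and 2 higher after 16 weeks. *CBF1*, *CBF2* and *RVE2* of that list were not among the genes tested. Of 16 tested genes of abscisic acid synthesis and signalling, 1, *ABF1*, was lower and 0 higher after 12 weeks, and after 16 weeks *ABF1* was lower and 5 were higher.

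Cell type markers moved over the same samples. The summed level of 19 tested genes of the xylem secondary wall was 3681 to 4883 CPM at 0w, 558 to 763 CPM at 4w, 253 to 446 CPM at 8w, 105 to 260 CPM at 12w, 452 to 522 CPM at 16w and 591 to 1226 CPM at 21w. It was 512 to 2006 CPM at 12w+5dLD, 1708 to 2706 CPM at 16w+5dLD and 1042 to 2275 CPM at 21w+5dLD, and 12 of the 19 genes were higher after 12 weeks and return and 7 after 16 weeks, with 0 lower. *SND1*, a regulator of fibre walls, was listed at 0 in all libraries of 8w, 12w and 12w+5dLD. The sum over 23 tested photosynthesis genes was 16310 to 18781 CPM at 0w, 32047 to 35995 CPM at 4w, 22246 to 23627 CPM at 8w, 19755 to 25045 CPM at 12w, 26167 to 28406 CPM at 16w and 12082 to 20269 CPM at 21w, and 12854 to 19111 CPM over the returned groups. The sum was higher at 4w than at 0w while 7 of the 23 genes were lower and 2 higher, with a median of -0.42 on the log2 scale. Of the 23, 8 were higher and 1 lower after 12 weeks and return, and 1 higher and 2 lower after 16 weeks. The 4 tested epidermis markers summed to 90.7 to 110 CPM at 0w, 12.1 to 18.2 CPM at 21w and at most 20.6 CPM in the returned groups, with *ATML1* at 0 in all libraries of 12w and 16w+5dLD. The 4 tested cambium markers summed to 512 to 674 CPM at 0w and 361 to 516 CPM at 4w. Their sum was 402 to 458 CPM at 8w and 888 to 1106 CPM at 21w. At the same times, 5 phloem markers summed to 406 to 432, 307 to 409, 259 to 305 and 392 to 475 CPM. For 4 markers of suberized tissue it was 212 to 276, 333 to 386, 152 to 219 and 56.8 to 166 CPM. The part of tissue composition in the levels of the 65 genes was not tested, and in whole stems fewer cells of a type cannot be told apart from less RNA per cell.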

How the data were processed

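Poly(A) RNA of 27 stem libraries was sequenced as single reads from a strand-marking kit. The deposited counts per gene were made by the authors with HISAT2, StringTie and a script that turns StringTie coverage into counts; versions and genome build: not given in the sources used here. Their comparison sheets, with DESeq2 fold changes and p-values, were not used. Levels are CPM on library totals. Differences are from edgeR 4.0.16 in R 4.3.3 (TMM, filterByExpr, a mean per group over all 27 libraries, 18 residual degrees of freedom, glmQLFTest), with Benjamini-Hochberg adjustment over 19337 genes, and calls needed 2-fold and an adjusted p under 0.05. DESeq2 1.42.0, other normalization, no filter, a replicate block and each library left out were alternatives. The shares of all genes tested that were called are by edgeR, and none is given beside the DESeq2 counts. In data simulated for 12w+5dLD against 12w, 100 genes were changed by 1.5 on the log2 scale and 100 by 3. All of them had a mean of at least 10 CPM, every other gene kept 1 mean in all groups, and the spread was the fitted one. Of the 2 sets, 72% and 89% were found. The real comparison had more changed genes and levels near 0, so these rates may not hold for it. The members and gene lists were chosen with earlier results of these data known. Named genes were members on a gene list, the 10 highest in CPM over 4w and 8w, the 10 with the largest ratio to 21w, up to 5 called per comparison and direction with the largest change, and those at a threshold, with at most 2 without an *A. thaliana* locus in each part; *LEA14*, *HRE1*, *BIB*, *HMGB2*, *CRF6*, *TINY*, *DIR1*, *PDF2.2*, *CYP708A1*, Aa_G574060 and genes that share counts with a member were added after their values were seen. Nothing says whether the libraries came from separate plantings, so p-values measure the spread between these pools of 10 plants.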

Additional observations from a re-analysis of the deposited data

How the results depend on the processing

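The choice of 65 genes depended on its thresholds, with 159 genes under looser folds and 24 under stricter ones, and 61 to 90 when a library was left out. The 45 genes lower at 12w+5dLD than at 12w became 41 to 46 when a library was left out and 30 of the 42 genes that shared no counts. Of the 45, 37 lost the call under no alternative of the fit. Genes to which DESeq2 gave no adjusted p are counted there as not lost. The 34 lower at 16w+5dLD than at 16w became 27 to 35 when a library was left out, and 26 lost the call under no alternative, counted in the same way. Genes named by the stated rule, without those added after their values were seen, had 567 alternative values with an adjusted p. Of these, 525 kept their call, 42 lost it and 0 reversed. The smaller counts moved more, and the cause was not tested. The 3 genes lower at 16w than at 12w became 7 by DESeq2, 5 on adjusted p alone, 1 without members that share counts, 0 with only the groups compared and 0 to 3 when a library was left out. The 0 genes with a different response to return after 16 and 12 weeks became 5 by DESeq2 and 0 to 2 when a library was left out. The 3 genes called at 21w+5dLD against 16w+5dLD became 13 by DESeq2, 5 on adjusted p alone, 0 with only the groups compared and 0 to 10 when a library was left out. With the replicate number as a block, these counts were 46, 34, 2, 0 and 4 in the order given. Same-numbered libraries deviated together at r = -0.054 to 0.075, which cannot show whether the numbers pair the libraries. Only at 12w+5dLD against 12w did each library correlate best with its own number. At these depths the levels of *GRP3* at 12w+5dLD and 16w+5dLD and of *AT1G02460* at 16w+5dLD rest on 4 counts or fewer.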
